A study of Rattus norvegicus with 6 samples.

Results

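Metallothioneins and antioxidant enzymes were followed in the dorsal root ganglia of diabetic and control rats as a set of 10 genes: the metallothioneins Mt1a, Mt2A and Mt3, the haem and quinone enzymes Hmox1 and Nqo1, the glutathione-synthesis subunits Gclc and Gclm, and the peroxide and superoxide enzymes Gpx1, Sod1 and Cat. They were taken by gene symbol from the 68842 transcript clusters of the array. The 10 symbols matched 11 clusters, and the cluster with the highest mean signal over the 6 arrays stood for its gene. The 3 diabetic rats were male Sprague-Dawley rats of 180 to 220 g at assignment. They received 1 intraperitoneal injection of streptozotocin, a toxin of the insulin-producing beta cells, at 65 mg/kg, were kept in the study if non-fasting glucose reached 16.7 mM after 1 week, and gave their ganglia 8 weeks after the injection. The 3 control rats were of the same strain, sex and weight range and received citrate buffer. Each array holds the pooled L3 to L6 ganglia of both sides of 1 rat, so each array is 1 animal. The streptozotocin model lacks insulin and combines high glucose with the other effects of insulin loss. The ages of the rats and the glucose of each rat were not used here.

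Metallothioneins are small cysteine-rich proteins that bind zinc and copper and scavenge oxidants. Their genes respond to metals through the transcription factor MTF1, which binds metal response elements, and also to glucocorticoids and oxidants. Mt1 and Mt2 are widely expressed, whereas Mt3 is known chiefly from neurons and astrocytes. Hmox1, Nqo1, Gclc and Gclm are textbook targets of NRF2, a transcription factor held back by KEAP1 that binds antioxidant response elements when electrophiles or oxidants accumulate. Superoxide dismutase, catalase and glutathione peroxidase remove superoxide and hydrogen peroxide, and high glucose is known to raise oxidant production in sensory neurons.

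Promoters of the metallothionein genes that lie next to each other on chromosome 19 are shown so that the neighbours can be compared. Mt2A had the clearest higher signal of the set and Mt3 overlapping groups, while the Mt1a cluster of this locus gave no signal above the negative controls. Each is the 250 bases before the gene's start in the RefSeq table of the rat assembly GRCr8, on the minus strand: Mt2A at chr19:10838709-10838958, Mt1, the current symbol of Mt1a, at chr19:10832976-10833225, and Mt3 at chr19:10856081-10856330. Capitals mark the core of the metal response element, TGCACNC or TGCGCNC, and the core of the antioxidant response element, TGACNNNGC, on either strand.
Mt2A: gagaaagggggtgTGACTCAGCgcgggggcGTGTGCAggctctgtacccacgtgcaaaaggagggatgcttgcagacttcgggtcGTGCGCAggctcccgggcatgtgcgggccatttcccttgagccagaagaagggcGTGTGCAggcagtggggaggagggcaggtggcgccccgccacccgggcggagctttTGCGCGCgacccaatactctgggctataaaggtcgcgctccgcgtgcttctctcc
Mt1: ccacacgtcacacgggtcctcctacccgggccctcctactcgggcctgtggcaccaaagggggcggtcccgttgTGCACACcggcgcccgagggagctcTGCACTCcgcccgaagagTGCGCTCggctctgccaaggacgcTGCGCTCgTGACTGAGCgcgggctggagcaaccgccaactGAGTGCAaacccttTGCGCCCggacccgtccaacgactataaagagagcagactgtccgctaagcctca
Mt3: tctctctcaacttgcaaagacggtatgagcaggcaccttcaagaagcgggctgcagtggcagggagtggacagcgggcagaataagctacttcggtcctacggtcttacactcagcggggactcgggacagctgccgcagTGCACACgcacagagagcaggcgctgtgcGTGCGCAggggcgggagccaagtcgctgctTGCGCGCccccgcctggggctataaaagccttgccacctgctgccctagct
Counted from the gene's start, the first base of the antioxidant core lay at -237 in Mt2A and at -101 in Mt1, and Mt3 had 0 matches to it. The metal cores numbered 4 in Mt2A, 6 in Mt1 and 3 in Mt3, and 0 matches overlapped each other. Of 33469 promoters of 300 bases in the table, 24.2% held at least 1 metal core, 1.68% held 3 or more, 0.439% held 4 or more and 0.0388% held 6 or more, while 12.1% held the antioxidant core. The table had an entry for 9 of the 10 genes, with Hmox1 missing. Among the others, Gclm held 2 metal cores and 1 antioxidant core, and Nqo1, Gclc, Gpx1, Sod1 and Cat held 0 of each in this window. A match is a run of letters, and whether a factor bound there was not measured.

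None of the 10 genes passed limma's adjusted p of 0.05 over all clusters (0 of 10, with adjusted p between 0.57 and 0.98). Over all clusters 0.00581% passed. Mt2A had the clearest higher signal in diabetic ganglia and Nqo1 the clearest lower one, and these were the 2 genes of the set with an unadjusted p under 0.05, against 7.85% of all clusters. By direction this was 1 higher gene, against 2.73% of all clusters, and 1 lower gene, against 5.11%. Among all clusters with an unadjusted p under 0.05, 34.8% were higher, but 65.8% were after each array was centred on its median and 48.8% after quantile normalization. With only the clusters at or above the median level kept, 49.5% were higher. Shares over all clusters, here and below, include the dimmer clusters and so understate the higher share among brighter ones. Of the 10 genes 4 had a higher and 6 a lower mean, with a median log2 fold change of -0.03, beside 38.2% higher and a median of -0.04 over all clusters. Over coding clusters, the class of all 10 genes, 49.5% were higher and the median was -0.002. The negative controls had a median of -0.105, so background signal was itself lower on the diabetic arrays. After median centring 7 of the 10 had a higher mean and the median was 0.05, and without control replicate 3 there were likewise 7, with a median of 0.06. These counts include Hmox1, whose signal was at background. The median size of the difference, ignoring sign, was 0.08 log2 units in the set and 0.10 over all clusters. In whole ganglia, fewer cells of a type and less RNA per cell cannot be told apart.

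**Figure D1:**
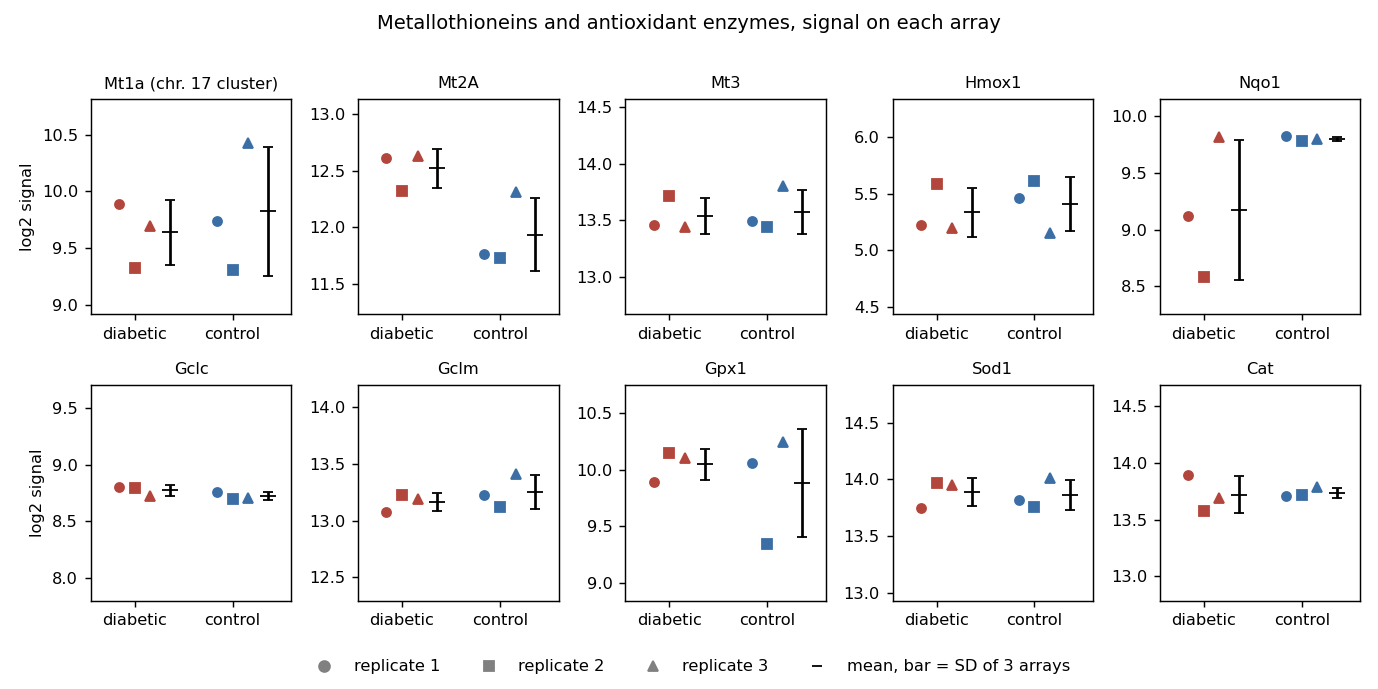
Log2 signal of each of the 10 genes on every array (y axis, each panel spanning the same number of log2 units), with the 3 diabetic arrays left of the 3 control arrays and black bars giving the mean and SD of 3 arrays. The groups do not overlap in Mt2A and overlap in the other 9 genes, and the diabetic arrays of Nqo1 spread from 8.58 to 9.82 while its control arrays lie between 9.79 and 9.82.

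Background and tissue were checked on the same arrays. Array medians were 3.95 to 4.15 on the log2 scale, and Pearson's r between arrays across clusters was 0.993 to 0.997. The 90th percentile of the 1153 negative control probe sets was 6.06 to 6.67 per array. Of the 10 genes 9 lay above it on every array and Hmox1 on none. No filter on low values was used, so all 10 were tested. All 10 sensory neuron markers lay above it on every array and 0 of 4 markers of spinal cord glia on any. Myelinating Schwann cell markers had lower means in diabetic ganglia in 6 of 6 genes, the mean level of the list being 10.37 to 10.73 on diabetic arrays and 10.91 to 11.06 on control arrays; 1 of the 6, Mag, lay above the negative control level on no array. Macrophage markers had a mean of 5.99 to 6.63 on diabetic arrays and 5.53 to 6.29 on control arrays, 3 of 6 of them being above the negative control level on no array, and skeletal muscle markers stood at 6.46 on control replicate 2 and at 4.72 to 4.87 on the other 5 arrays. Fibroblast markers averaged 9.20 to 10.04 on diabetic and 9.84 to 10.69 on control arrays, with higher means in 2 and lower means in 3 of 5 genes. Among them the collagen genes Col1a1 (7.44 in diabetic and 9.47 in control ganglia, log2 fold change -2.02) and Col1a2 (8.63 in diabetic and 10.21 in control ganglia, -1.59) were lower without overlap. Satellite glial markers averaged 9.50 to 10.18 on diabetic and 9.94 to 10.39 on control arrays, with higher means in 2 and lower means in 4 of 6 genes. Of these, the potassium channel gene Kcnj10 was lower without overlap, at 7.65 in diabetic and 8.50 in control ganglia. Limma's adjusted p was 0.53 for each of Col1a1, Col1a2 and Kcnj10. Over all clusters 8.32% were lower without overlap. Red blood cell markers had lower means in 5 of 5 genes with overlap, their mean being 8.04 to 9.26 on diabetic and 8.57 to 9.19 on control arrays. The part of these cell types in the results below was not tested.

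Mt2A, the broadly expressed metallothionein that stores zinc, was measured by 50 probes on chromosome 19, at 11307958 to 11308896 on the minus strand in the deposited annotation, whose genome build is not given in the sources used here. Its signal was 12.61, 12.32 and 12.63 in diabetic ganglia, against 11.76, 11.73 and 12.31 in control ganglia. The groups did not overlap, although control replicate 3 came close to diabetic replicate 2. Mt2A was the 1 gene of the set higher without overlap, against 4.96% of all clusters, and 0 were lower without overlap, against 8.32%. The means were 12.52 ± 0.17 in diabetic and 11.94 ± 0.33 in control ganglia (SD, n = 3 arrays each), a signal 49.8% higher. The log2 fold change was 0.58 (SE 0.18, 95% interval 0.16 to 1.01, unadjusted p = 0.012, limma adjusted p = 0.57). It stayed positive, between 0.48 and 0.77, with any 1 array left out.

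Mt1m, a short metallothionein locus of 393 bases on chromosome 20 (3677459 to 3677851, plus strand, 30 probes), followed the same pattern. It is no member of the set and comes from the list of further metallothioneins. The RefSeq gene table of GRCr8 lists it as a pseudogene, whereas the deposited annotation names it from an Ensembl coding transcript. Its signal was 14.90, 14.55 and 14.91 in diabetic ganglia, against 13.53, 13.76 and 14.34 in control ganglia. The groups did not overlap, and control replicate 3 was again the highest control. The means differed 1.88-fold, at 14.79 ± 0.20 in diabetic and 13.87 ± 0.42 in control ganglia (SD, n = 3 each; log2 fold change 0.91, SE 0.22, unadjusted p = 0.0025, limma adjusted p = 0.53). Metallothionein copies are short and alike in sequence, so signal of one may reach the probes of another, and the probe sequences were not used here.

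Mt1a, the other broadly expressed metallothionein, was represented by a cluster of 421 bases on chromosome 17 (78793329 to 78793749, plus strand, 15 probes), named from an Ensembl transcript. Its signal was 9.89, 9.33 and 9.69 in diabetic ganglia, against 9.74, 9.30 and 10.43 in control ganglia. The groups overlapped, and control replicate 3 was the highest of the 6 arrays. Means of 9.64 ± 0.29 in diabetic and 9.82 ± 0.57 in control ganglia (SD, n = 3 each) gave a log2 fold change of -0.19 (SE 0.28, 95% interval -0.82 to 0.44, limma adjusted p = 0.86). Without control replicate 3 the sign turned, to 0.12.

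The cluster of the RefSeq gene Mt1a itself, next to Mt2A on chromosome 19 (11301929 to 11303674, minus strand, 112 probes), gave a signal in the range of the negative controls. It was at 4.79, 4.53 and 4.80 in diabetic ganglia, against 4.63, 4.42 and 4.79 in control ganglia. The groups overlapped, and as it lay below the negative control level on all 6 arrays it says nothing of a direction (limma adjusted p = 0.84). No direction is given for Mt1a, since that of the chromosome 17 cluster turned with 1 array. A further cluster, named Mt1f, lies on the X chromosome and was chosen after its values were seen. It was at 7.29, 6.69 and 6.83 in diabetic ganglia, against 6.82, 6.63 and 7.15 in control ganglia. The cluster spans 32044 bases with 30 probes and has the locus class Multiple_Complex instead of Coding. Whether its signal is that of a metallothionein was not tested.

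Mt3, the neuronal metallothionein, lies 15.8 kb from Mt2A on the same strand (11324699 to 11326209, 43 probes). Its signal was 13.46, 13.72 and 13.44 in diabetic ganglia, against 13.49, 13.44 and 13.80 in control ganglia. The highest diabetic array was replicate 2, the one with the lowest Mt2A of its group, and the groups overlapped fully. Means were 13.54 ± 0.16 in diabetic and 13.58 ± 0.19 in control ganglia (SD, n = 3 each; log2 fold change -0.04, 95% interval -0.38 to 0.30, limma adjusted p = 0.95). Its sign turned under median centring (0.04) and without diabetic replicate 1, diabetic replicate 3 or control replicate 3. Mt4, known from squamous epithelium, completes the row of neighbours, which spans 39.9 kb; it lay below the negative control level on all arrays, at 3.83, 4.01 and 4.0 in diabetic ganglia, against 4.25, 3.96 and 4.12 in control ganglia.

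**Figure D2:**
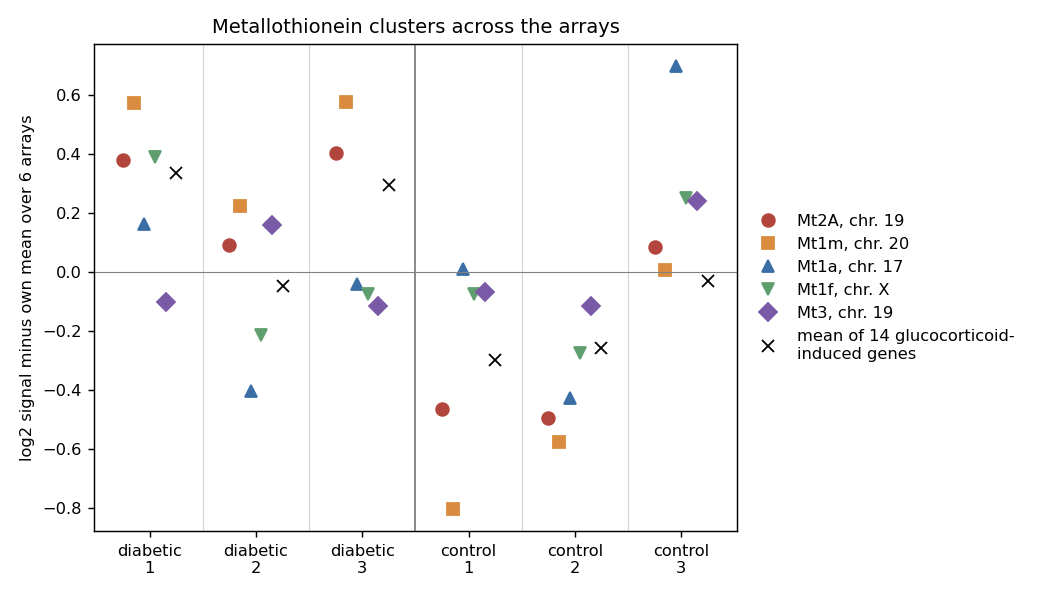
Log2 signal of 5 clusters named as metallothioneins on each array after subtracting the cluster's own mean over the 6 arrays (y axis). Crosses give the mean of 14 glucocorticoid-induced genes treated the same way, and diabetic arrays are left of control arrays. Mt2A and Mt1m lie higher on the diabetic arrays, whereas the chromosome 17 cluster of Mt1a is highest on control replicate 3.

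Hmox1, the inducible haem oxygenase that turns haem into biliverdin, iron and carbon monoxide, gave no signal above the 90th percentile of the negative controls on any array (chromosome 19, 14507938 to 14515457, plus strand, 90 probes). It was at 5.22, 5.59 and 5.20 in diabetic ganglia, against 5.46, 5.62 and 5.15 in control ganglia. The groups overlapped (limma adjusted p = 0.90), and a fold of a signal at background gives no direction. A change of a transcript this close to background may not be detectable with these arrays. The constitutive enzyme Hmox2 and the biliverdin reductases Blvra and Blvrb, which make bilirubin, were all higher in diabetic ganglia without overlap between the groups. Hmox2 was at 13.96, 13.84 and 13.73 in diabetic ganglia, against 13.64, 13.55 and 13.63 in control ganglia (log2 fold change 0.24). Blvrb was at 9.13, 9.05 and 9.07 in diabetic ganglia, against 8.83, 8.82 and 8.73 in control ganglia (log2 fold change 0.29, unadjusted p = 0.029). None of the 3 passed over all clusters (limma adjusted p = 0.61 to 0.70). The 3 of 3 higher without overlap stand beside 4.96% of all clusters, and the 1 of 3 higher at an unadjusted p under 0.05 beside 2.73%.

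Nqo1, a quinone reductase that works by transferring 2 electrons at once, had the widest spread of the set among diabetic rats (chromosome 19, 38422127 to 38437164, plus strand, 100 probes). Its signal was 9.12, 8.58 and 9.82 in diabetic ganglia, against 9.82, 9.79 and 9.80 in control ganglia. Diabetic replicates 1 and 2 lay below every control, while diabetic replicate 3 lay among the controls. The SD was 0.62 over the 3 diabetic and 0.02 over the 3 control arrays. The means of 9.17 in diabetic and 9.80 in control ganglia gave a log2 fold change of -0.63, or 1.55-fold lower (SE 0.27, 95% interval -1.25 to -0.01, unadjusted p = 0.046, limma adjusted p = 0.63). Leaving out diabetic replicate 2 brought the difference to -0.33, and leaving out diabetic replicate 3 brought it to -0.95. Over all clusters 1.24% differed by 1.5-fold or more, and Nqo1 was the 1 gene of the set that did, with Mt2A just short of it. The Schwann cell markers, lower in the same group, averaged 10.37, 10.73 and 10.54 on the diabetic arrays and 10.91 to 11.06 on the control arrays; their part in the Nqo1 difference was not tested.

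The other enzymes that reduce quinones or carbonyls did not share the lower mean of Nqo1, with 5 of 5 having higher means in diabetic ganglia, also with any 1 array left out. Cbr1, a carbonyl reductase that is also an NRF2 target, was at 12.29, 12.13 and 12.19 in diabetic ganglia, against 11.59, 11.50 and 11.85 in control ganglia. Every diabetic array lay above every control array (log2 fold change 0.55, SE 0.14, unadjusted p = 0.003, limma adjusted p = 0.53). Nqo2, which uses a different electron donor from Nqo1, was at 7.0, 6.67 and 6.83 in diabetic ganglia, against 6.50, 6.68 and 6.66 in control ganglia. Cryz, zeta-crystallin, was at 6.53, 6.35 and 6.51 in diabetic ganglia, against 6.37, 6.23 and 6.23 in control ganglia, and in both Nqo2 and Cryz the groups overlapped. Signals of Aifm2, the ubiquinone reductase that counters ferroptosis, and of Cbr3 were too close to the negative controls for a fold. The 5 of 5 thus rests on Cbr1, Nqo2 and Cryz for signals above background on most or all arrays. Aifm2 averaged 6.07 in diabetic and 5.68 in control ganglia, and Cbr3 averaged 5.11 in diabetic and 4.84 in control ganglia.

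**Figure D3:**
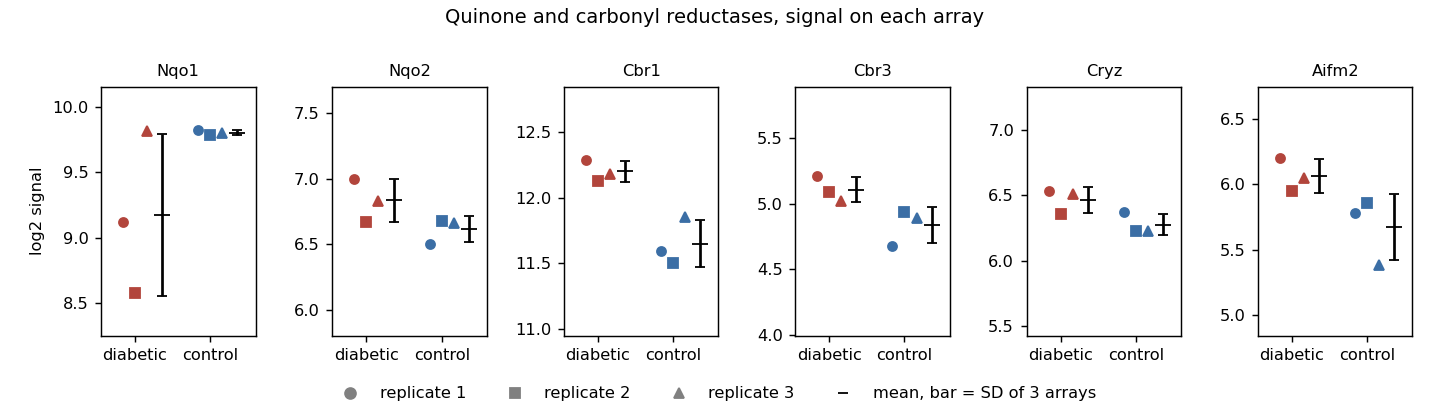
Log2 signal of Nqo1 and 5 other quinone or carbonyl reductases on each array (y axis, equal spans), diabetic arrays left of control arrays, with mean and SD of 3 arrays in black. Nqo1 has the lower diabetic mean, with diabetic replicate 3 at the control level, and the other 5 have higher diabetic means, Aifm2 and Cbr3 close to background.

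Gclc and Gclm, the catalytic and modifier subunits of the ligase that limits glutathione synthesis, had overlapping groups and small differences. Gclc (chromosome 8, 85058690 to 85097617, 250 probes) was at 8.81, 8.79 and 8.72 in diabetic ganglia, against 8.76, 8.70 and 8.71 in control ganglia. Its difference was 0.05 (95% interval -0.19 to 0.30, limma adjusted p = 0.90). Gclm (chromosome 2, 225826787 to 225848697, 130 probes) was at 13.07, 13.23 and 13.20 in diabetic ganglia, against 13.23, 13.12 and 13.42 in control ganglia. Its difference was -0.09 (95% interval -0.39 to 0.21, limma adjusted p = 0.85), and the groups of both genes overlapped.

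At other steps of the glutathione cycle, 3 genes well above background had higher signals in diabetic ganglia at an unadjusted p under 0.05. Ggt5, a surface enzyme that cleaves glutathione conjugates, was at 8.69, 8.59 and 8.87 in diabetic ganglia, against 7.50, 7.86 and 7.88 in control ganglia (log2 fold change 0.97, limma adjusted p = 0.497). These values come from a short cluster of 30 probes on chromosome 19 (51552883 to 51553318, minus strand), named from the Rat Genome Database. Whether its probes measure the Ggt5 gene itself was not tested. Gss, which adds glycine in the last step of synthesis, was at 8.42, 8.27 and 8.58 in diabetic ganglia, against 7.82, 8.04 and 7.90 in control ganglia (log2 fold change 0.50, limma adjusted p = 0.53). Gsr, which returns oxidised glutathione to its reduced form, was at 10.32, 10.29 and 10.34 in diabetic ganglia, against 10.08, 10.07 and 9.88 in control ganglia (log2 fold change 0.30, limma adjusted p = 0.61). In these 3 genes the groups did not overlap, and 0 of them passed over all clusters. The cystine carrier's partner Slc3a2 was also higher without overlap, at 10.21, 10.39 and 10.37 in diabetic ganglia, against 10.03, 10.16 and 10.01 in control ganglia. With it, 4 of 20 genes outside the set were higher and 0 lower without overlap, beside 4.96% and 8.32% of all clusters. Of 20 genes of glutathione synthesis and recycling outside the set, 8 had higher and 12 lower means (median log2 fold change -0.01), with an unadjusted p under 0.05 in 4 higher and 0 lower genes, beside 2.73% higher and 5.11% lower over all clusters. Glrx, a glutaredoxin and the gene of highest mean in this list, averaged 14.39 in diabetic and 14.40 in control ganglia. The fourth gene with an unadjusted p under 0.05, Chac1, which degrades glutathione, lay below the negative control level on all arrays. The cystine carrier Slc7a11 was there too, at 3.55 in diabetic and 3.56 in control ganglia. So were Cbs, Ggt1, Ggt6, Ggct, Oplah, Dpep1 and Dpep2, all with lower means, and Glrx5, with a higher one. Most of the lower means in this list were thus at background, so its split and its median give no direction.

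Gpx1, the cytosolic selenium-dependent glutathione peroxidase, had a difference that rested on 1 control array (chromosome 8, 117117430 to 117118528, plus strand, 28 probes). It was at 9.89, 10.14 and 10.10 in diabetic ganglia, against 10.05, 9.34 and 10.25 in control ganglia. Control replicate 2 was the lowest of the 6 arrays and the others lay within the same range. The log2 fold change of 0.17 (95% interval -0.35 to 0.68, limma adjusted p = 0.84) turned to -0.10 without that array. On control replicate 2 the macrophage markers also had their lowest mean, 5.53, and the muscle markers their highest, 6.46; their part in the result was not tested.

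Sod1, the copper-zinc superoxide dismutase of the cytosol, was at 13.75, 13.97 and 13.95 in diabetic ganglia, against 13.82, 13.76 and 14.01 in control ganglia (chromosome 11, 30362918 to 30368863, plus strand, 80 probes). Its difference of 0.02 had a 95% interval of -0.28 to 0.33 (limma adjusted p = 0.96). Cat, the peroxisomal catalase, was at 13.90, 13.58 and 13.69 in diabetic ganglia, against 13.71, 13.72 and 13.79 in control ganglia (chromosome 3, 93379872 to 93412146, minus strand, 200 probes). Its difference of -0.01 had a 95% interval of -0.31 to 0.28 (limma adjusted p = 0.98). For both genes the groups overlapped and the sign turned with single arrays left out, so no direction can be given. Of the other dismutases, mitochondrial Sod2 averaged 11.74 in diabetic and 11.90 in control ganglia, lower without overlap, and extracellular Sod3 averaged 9.90 in diabetic and 10.40 in control ganglia (limma adjusted p = 0.74 and 0.64). Diabetic replicate 2 of Sod3, at 10.47, lay above all 3 controls, the other diabetic arrays, at 9.65 and 9.58, below them.

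**Figure D4:**
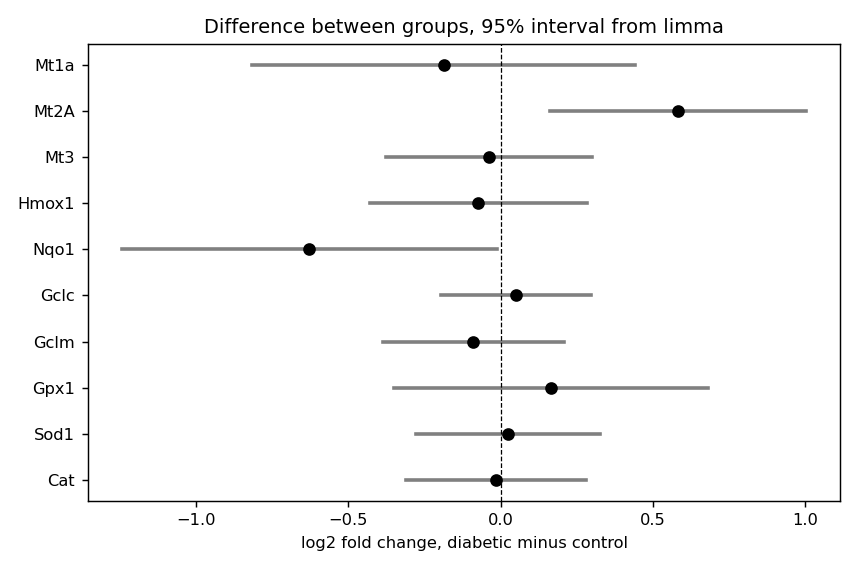
Log2 fold change, diabetic minus control, of the 10 genes (points) with the 95% interval of limma's fit (bars); positive values mean a higher signal in diabetic ganglia. The interval lies above 0 for Mt2A and below 0 for Nqo1, reaches both sides of 0 for the other 8, and adjustment over all clusters leaves none past the threshold. The signal of Hmox1 was at background, so its point gives no direction.

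The wider pathway and the glucocorticoid-induced genes were described with 14 lists that hold 174 measured genes outside the set, some of them in more than 1 list. The 14 glucocorticoid-induced genes are no part of the antioxidant pathway. In the counts below they supply 13 of the genes with a higher mean and 5 of the higher genes at an unadjusted p under 0.05. None of the 174 passed limma's adjusted p of 0.05, the lowest being 0.497. At an unadjusted p under 0.05 there were 19 higher and 3 lower genes, beside 2.73% higher and 5.11% lower over all clusters. The split was 25 and 1 after median centring and 20 and 5 after quantile normalization. Keeping only clusters at or above the median level left 149 of the genes, with 19 higher and 2 lower. Among all clusters kept there, 1646 were higher and 1679 lower. With single arrays left out the higher count ran from 13 without diabetic replicate 3 to 25 without diabetic replicate 2. The lower count ran from 1 without diabetic replicate 1 to 7 without control replicate 2. Means were higher in 101 and lower in 73 genes, with a median log2 fold change of 0.03, against -0.04 over all clusters and -0.002 over coding clusters. Of the 174 genes, 134 had higher means after median centring and 84 without control replicate 2, which turned the majority.

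NRF2 and its regulators differed little. Of 10 such genes 6 had higher and 4 lower means, with 0 under an unadjusted p of 0.05. Nfe2l2, which encodes NRF2, was at 6.87, 6.91 and 6.74 in diabetic ganglia, against 6.81, 6.67 and 6.93 in control ganglia, and the groups overlapped. Keap1 averaged 6.28 in diabetic and 6.18 in control ganglia. Cul3, the ubiquitin ligase scaffold that works with KEAP1, averaged 13.51 in diabetic and 13.62 in control ganglia, lower without overlap (limma adjusted p = 0.79). Of 23 NRF2 targets outside the set 14 had higher and 9 lower means (median 0.03), with 3 higher at an unadjusted p under 0.05: Cbr1, Blvrb and the glutathione transferase Gstp1. Gstp1 was at 10.97, 10.69 and 10.86 in diabetic ganglia, against 10.29, 10.37 and 10.48 in control ganglia, without overlap (log2 fold change 0.46, limma adjusted p = 0.54). The thioredoxin reductase Txnrd1, at 9.50 in diabetic and 9.47 in control ganglia, and the sulfiredoxin Srxn1, below the negative control level on all arrays, did not differ beyond their spread.

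Glutathione transferases, which couple glutathione to electrophiles, had higher means in 18 of 23 genes (median log2 fold change 0.10, but 0.0084 without control replicate 2). The count includes genes below the negative control level on all arrays. These were Gsta3, Gstm3, Gstt1, Gstt2, Gstt3 and Gsto1, with higher means, and Gsta2, Gsta5, Gsto2 and Hpgds, with lower means. Besides Gstp1, Gstm2 was higher without overlap, at 10.01, 9.93 and 10.19 in diabetic ganglia, against 9.62, 9.70 and 9.75 in control ganglia (log2 fold change 0.35, limma adjusted p = 0.59). Mgst1, the microsomal transferase with the highest mean, averaged 13.55 in diabetic and 13.51 in control ganglia. The transferases are a family of close paralogs that can share signal. The other glutathione peroxidases had lower means in 5 of 7 genes (median -0.13). Among them Gpx4, which reduces lipid peroxides, averaged 8.03 in diabetic and 8.08 in control ganglia, and Gpx6, with the 1 unadjusted p under 0.05, lay below the negative control level on all arrays.

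Peroxiredoxins and thioredoxins, which reduce peroxides through thiols, had higher means in 15 of 21 genes (median 0.03). The largest difference in that list was that of Txnip, the inhibitor of thioredoxin, with a signal of 13.21, 12.81 and 13.43 in diabetic ganglia, against 11.60, 11.29 and 12.06 in control ganglia (log2 fold change 1.5, limma adjusted p = 0.497). Thioredoxin itself, Txn1, averaged 16.26 in diabetic and 16.45 in control ganglia, and the peroxiredoxin Prdx1 averaged 13.96 in diabetic and 13.71 in control ganglia, both with overlap.

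Metal handling beside the metallothioneins was close to even. The zinc sensor Mtf1 averaged 7.17 in diabetic and 7.13 in control ganglia, and the zinc exporter Slc30a1, which like the metallothioneins responds to MTF1, averaged 6.41 in diabetic and 6.44 in control ganglia. Of 21 genes of zinc sensing and transport 8 had higher and 13 lower means (median -0.04, but 0.04 after median centring). Slc30a9, the zinc transporter gene with the highest mean, averaged 12.64 in diabetic and 12.58 in control ganglia. The zinc importer Slc39a10 was at 7.91, 8.06 and 7.95 in diabetic ganglia, against 8.43, 8.24 and 8.27 in control ganglia, lower without overlap (log2 fold change -0.34, unadjusted p = 0.017, limma adjusted p = 0.58). Of 16 copper and iron genes 8 had higher and 8 lower means. Ceruloplasmin, Cp, the copper ferroxidase, was at 7.99, 7.96 and 8.00 in diabetic ganglia, against 7.54, 6.85 and 7.62 in control ganglia (log2 fold change 0.64, limma adjusted p = 0.57; 0.40 without control replicate 2). The ferritin heavy chain Fth1 averaged 15.61 in diabetic and 15.48 in control ganglia, with overlap.

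Glucocorticoid-induced genes were listed because metallothioneins answer to the same hormone. Of 14 measured, 13 had higher means in diabetic ganglia (median log2 fold change 0.32), and 12 to 14 did with an array left out. At an unadjusted p under 0.05 there were 5 higher, Per1, Dusp1, Cebpd, Nfkbia and Pdk4, and 0 passed over all clusters. These 5 of 14 stand beside 2.73% of all clusters. Pdk4 was close to background, lying above the negative control level on 2 of the 6 arrays. The clock gene Per1 was at 7.58, 7.36 and 7.67 in diabetic ganglia, against 6.81, 7.05 and 7.13 in control ganglia (log2 fold change 0.54, limma adjusted p = 0.53). The phosphatase gene Dusp1, also an immediate early gene, was at 8.74, 8.05 and 8.99 in diabetic ganglia, against 7.70, 7.74 and 7.74 in control ganglia (log2 fold change 0.87, limma adjusted p = 0.53). The mean of the list was 8.02, 7.64 and 7.98 on the diabetic arrays, against 7.39, 7.43 and 7.66 on the control arrays. A part of the hormone in the metallothionein signals was not tested. Errfi1, a feedback inhibitor of EGF receptor signalling with the highest mean of the list, averaged 9.61 in diabetic and 9.33 in control ganglia, with overlap. Fkbp5 and Tsc22d3, which are often read as markers of the hormone, averaged 7.79 and 9.13 in diabetic and 7.52 and 8.98 in control ganglia (limma adjusted p = 0.67 and 0.75).

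**Figure D5:**
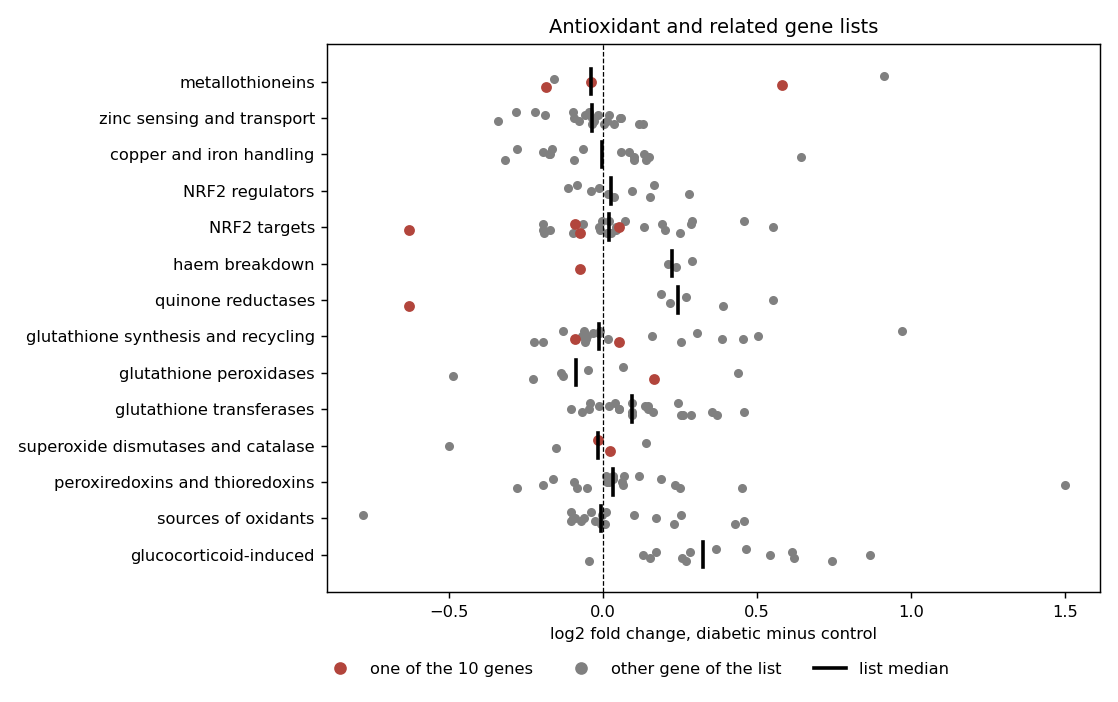
Log2 fold change, diabetic minus control, of every measured gene of 14 lists (x axis), with the 10 genes of the set in red, the other genes in grey and the list median as a black bar. The medians run from -0.09 for glutathione peroxidases to 0.32 for glucocorticoid-induced genes, and Nqo1 lies left of the other quinone reductases. Hmox1 is plotted too, but its signal was at background, so its place gives no direction.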

How the data were processed

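What the authors deposited for each transcript cluster is a log2 signal, made by gene-level SST-RMA per the file headers. The submitters' processing notes name RMA and no version. RMA in general corrects background, quantile-normalizes arrays and condenses probes to 1 value, which can compress differences of dim clusters. The deposited detection calls were all absent and were not used. Probes were hybridised with cDNA from 100 ng of RNA per the labels' protocols. The 1738 control probe sets were left out, and their 1153 negative controls gave the background level. Diabetic minus control was tested over 68842 clusters with limma 3.58.1 in R 4.3.3 (group as the only term, eBayes with an intensity trend, Benjamini-Hochberg over all clusters, two-sided, threshold 0.05, no filter). Precision is limited by 3 arrays per group, and an exact permutation test of 3 against 3 cannot go below 0.1, so none was run on any gene. The script was tested on simulated data with known changes. Members and lists were chosen with earlier results of these data known. Named were all members and, of each list, genes with unadjusted p under 0.05 (at most 4) or the highest mean; a few others were named for their function after their values were seen. Alternatives were 2 scalings, a level filter, 2 variance models, array weights, a replicate block, other clusters for Mt1a and each array left out.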

Additional observations from a re-analysis of the deposited data

How the results depend on the processing

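Mt2A stayed higher and Nqo1 lower in diabetic ganglia under all alternatives run, and 0 of the 10 genes passed the adjusted threshold in any. After median centring, which put the median of all clusters at 0.03, against -0.04 as deposited, Mt3 (0.036), Hmox1 (0.0017) and Cat (0.060) turned positive, 7 of 10 genes had a higher mean, and list medians became 0.073 for copper and iron, 0.10 for NRF2 regulators, 0.039 for zinc, 0.30 for haem breakdown, 0.062 for glutathione synthesis, 0.060 for dismutases and catalase and 0.069 for sources of oxidants. Quantile normalization gave -0.0034 for Gclc, with medians of -0.034 for copper and iron and 0.051 for sources of oxidants. Array weights turned Cat to 0.018. The chromosome 19 cluster of Mt1a, an alternative chosen after seeing the data, gave 0.094. As it lay below the negative control level on all arrays, that value gives no direction. Keeping the brighter clusters gave 2 clusters past the adjusted threshold, against 4 without the filter, and medians of 0.060 for copper and iron and 0.14 for sources of oxidants, over fewer genes. With 1 array left out, the count of clusters past the threshold ran from 1 to 5 and that of genes with a higher mean from 3 to 7. Log2 fold changes then ran from -0.45 to 0.12 for Mt1a, -0.13 to 0.073 for Mt3, -0.20 to 0.031 for Hmox1, -0.10 to 0.35 for Gpx1, -0.029 to 0.10 for Sod1 and -0.10 to 0.058 for Cat, and medians from 0.15 to 0.26 for haem breakdown, -0.033 to 0.041 for glutathione synthesis, -0.12 to 0.043 for glutathione peroxidases, 0.0084 to 0.16 for glutathione transferases and -0.10 to 0.0097 for dismutases and catalase. Replicate numbers did not pair the samples (correlations of deviations 0.041, -0.119 and -0.132), and with a replicate block 3 clusters and 0 of the 10 genes passed. The signs given here for Hmox1, at background, are no direction. The cause of these shifts was not tested.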

Other observations

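Sources of oxidants gave mixed values. Of 19 genes 8 had higher and 11 lower means in diabetic ganglia. Maob, the mitochondrial monoamine oxidase that releases hydrogen peroxide, was at 8.96, 9.60 and 9.09 in diabetic ganglia, against 10.19, 9.86 and 9.94 in control ganglia. Every diabetic array lay below every control array (log2 fold change -0.78, unadjusted p = 0.0027, limma adjusted p = 0.53), whereas its relative Maoa averaged 12.33 in diabetic and 12.42 in control ganglia with overlap. Cyba, the p22phox subunit of the NADPH oxidase of phagocytes, was at 7.41, 7.88 and 7.78 in diabetic ganglia, against 7.42, 7.0 and 7.29 in control ganglia (log2 fold change 0.46, limma adjusted p = 0.59). Its highest array, diabetic replicate 2, and its lowest, control replicate 2, were also the highest and the lowest for the mean of the macrophage markers (6.63 and 5.53), whose part in the result was not tested.

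The genes whose values, centred on their own mean, lay closest to a metallothionein's over the 6 arrays were sought among 10327 coding clusters. For Mt2A they were Acer2, a ceramidase, Aoc3, an amine oxidase, and LOC102554921, with mean absolute differences of 0.066, 0.084 and 0.086 log2 units. For the chromosome 17 cluster of Mt1a the closest was Sult1a1, a sulfotransferase of the glucocorticoid-induced list, at 0.077, and for Mt3 it was Pdcd6, a calcium-binding protein, at 0.019. Some genes lie this close among so many when only 6 arrays are compared, so these are descriptions without a test.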
